A study of Mus musculus with 27 samples.

Results

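The endothelial genes followed here were the receptor genes Kdr, Flt1, Tie1, Tek, Calcrl and Ramp2 and the surface and junction genes Pecam1, Cdh5, Cd34 and Esam. These 10 genes were taken by name from the 55487 genes of the deposited table, but with earlier results of these data known. The Ensembl identifiers of the table, without version, had been matched to mouse symbols. All 10 passed the filter on low counts, which asked for more than 10 counts in at least 3 of 27 libraries and kept 16330 genes.

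The libraries came from laser-captured pieces of the optic stalk (OS), the neuroepithelial tube between the developing eye and the brain, of mouse embryos at embryonic day 14. Each of 9 embryos gave a dorsal piece, a ventral piece and a piece of the retinal ganglion cell (RGC) axons. The 5 mutant embryos were Smarcc1-DCT-cKO, which carry Baf155 loxP/loxP (Baf155 is another name of Smarcc1), Dct-Cre and the Z/EG reporter, and the 4 controls were littermates without Dct-Cre. All lines were kept on C57Bl6/J. The Dct promoter drives Cre in the pigmented epithelium and the OS, and endothelial cells are not among the cells it is stated to target. Per the labels, batch A held control 1 and mutants 1 to 3, and batch B held controls 2 to 4 and mutants 4 and 5.

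Blood vessels are lined by endothelial cells, which sprout, form tubes and join mural cells on their outer face. Vascular endothelial growth factor (VEGF) acts through the receptors encoded by Kdr and Flt1, angiopoietins act through the receptor encoded by Tek, and adrenomedullin acts through the pair of proteins encoded by Calcrl and Ramp2. In the developing eye, vessels of the hyaloid system enter through the ventral fissure, and vessels of the surrounding mesenchyme cover the outside of the stalk. Kdr and Calcrl are known from some neural cells as well as from endothelium.

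In the GRCm38 annotation the receptor genes were Kdr (ENSMUSG00000062960) at chr5:75932827-75978458, Flt1 (ENSMUSG00000029648) at chr5:147561604-147726011, Tie1 (ENSMUSG00000033191) at chr4:118471191-118490061, Tek (ENSMUSG00000006386) at chr4:94739289-94874976, Calcrl (ENSMUSG00000059588) at chr2:84330626-84425411 and Ramp2 (ENSMUSG00000001240) at chr11:101246028-101259546. The surface and junction genes were Pecam1 (ENSMUSG00000020717) at chr11:106654217-106750628, Cdh5 (ENSMUSG00000031871) at chr8:104101625-104144511, Cd34 (ENSMUSG00000016494) at chr1:194938819-194961279 and Esam (ENSMUSG00000001946) at chr9:37528078-37538319. Counts were summed over the annotated gene, so that exons and transcript forms are not separated.

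Promoter sequence is shown for Kdr and Calcrl, the members counted most widely, and for Cd34 and Tek, whose counts came and went most clearly between pieces. RefSeq promoters (GRCm38.p6, 250 bases before and 50 bases after the start site, 5′ to 3′ on the strand of the gene) were matched for 6 of the 10 members. Capitals mark the letters AGGAAG on either strand, 1 form of the site of ETS factors, which are known regulators of endothelial genes.
Kdr, chr5:75978406-75978705, reverse strand: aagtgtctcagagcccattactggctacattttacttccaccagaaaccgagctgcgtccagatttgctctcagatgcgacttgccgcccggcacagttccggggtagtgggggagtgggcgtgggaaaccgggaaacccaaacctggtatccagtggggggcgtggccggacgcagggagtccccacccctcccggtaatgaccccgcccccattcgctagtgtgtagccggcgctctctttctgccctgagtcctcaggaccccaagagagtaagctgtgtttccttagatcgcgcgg
Calcrl, chr2:84425217-84425516, reverse strand: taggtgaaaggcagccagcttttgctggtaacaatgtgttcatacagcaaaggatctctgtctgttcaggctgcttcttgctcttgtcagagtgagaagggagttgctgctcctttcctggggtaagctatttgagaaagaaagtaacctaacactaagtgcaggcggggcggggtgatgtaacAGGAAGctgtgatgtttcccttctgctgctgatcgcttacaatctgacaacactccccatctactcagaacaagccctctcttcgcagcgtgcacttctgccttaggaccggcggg
Cd34, chr1:194938571-194938870, forward strand: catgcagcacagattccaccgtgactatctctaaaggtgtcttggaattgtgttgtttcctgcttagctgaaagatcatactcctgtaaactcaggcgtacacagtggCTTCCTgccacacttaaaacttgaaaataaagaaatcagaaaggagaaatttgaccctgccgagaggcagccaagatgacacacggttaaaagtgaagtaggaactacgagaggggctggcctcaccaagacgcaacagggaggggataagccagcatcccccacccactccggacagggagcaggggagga
Tek, chr4:94739039-94739338, forward strand: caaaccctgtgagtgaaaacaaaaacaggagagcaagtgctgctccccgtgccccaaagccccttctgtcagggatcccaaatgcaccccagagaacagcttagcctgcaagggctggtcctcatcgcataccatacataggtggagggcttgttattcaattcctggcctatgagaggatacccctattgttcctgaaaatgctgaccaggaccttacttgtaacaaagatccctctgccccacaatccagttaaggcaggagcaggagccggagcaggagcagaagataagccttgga
The letters AGGAAG were present in 4 of the 6 promoters (Flt1, Cd34, Calcrl and Tie1) and in 35.4% of all 32851 promoters of that length. Shorter or other forms of the ETS site were not searched, so a window without capitals may still hold them. The letters AGATAA, searched for GATA factors, were in 1 of the 6 (Tek) and in 11.2% of all promoters, and ACAAAG, searched for SOX factors, was also in that of Tek and in 18.7% of all. A match of letters is a description of the window and says nothing of whether a factor binds there.

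Library totals ran from 10.9 to 34.0 M counts, and levels are given as CPM, the counts of a gene per M counts of its library, so that 1 read equalled 0.0294 to 0.0917 CPM. The limit that a count of 0 allows is 3 counts, 0.0883 to 0.275 CPM by library. A gene is called detected in a library below when it had more than 3 counts. These limits cover counting error only, because the cDNA was amplified by PCR without molecular identifiers. Smarcc1 itself ran from 75.9 to 289 CPM in dorsal controls and from 2.26 to 107 CPM in dorsal mutants. It ran from 75.7 to 198 CPM against 14.7 to 64.4 CPM in the ventral pieces, and from 50.1 to 242 CPM against 1.86 to 44.9 CPM in the axon pieces. The levels of dorsal mutants 1 and 2 (94.9 and 107 CPM) lay within the range of their controls. Of 8 genes of the stalk neuroepithelium, 6 to 8 were detected in every library, and 8 genes of RGC axons summed to 3923 to 8178 CPM in the axon pieces and to 333 to 2269 CPM in the others.

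More of the endothelial genes were detected in dorsal than in ventral pieces, and the axon pieces varied widely. Kdr, Calcrl and Ramp2 were detected in 9 of 9 dorsal pieces, whereas Tie1 was detected in 6, Tek in 4 and Esam in 3 of them. Kdr and Calcrl were also detected in 9 of 9 ventral pieces, and each other member in 1 to 4 of them. Of the 10 members, 8 or 9 were detected in each dorsal control and 3 to 9 in each dorsal mutant. In the ventral pieces 3 to 7 were detected in controls and 2 to 4 in mutants, and in the axon pieces 1 to 5 in controls and 1 to 10 in mutants. The summed level of the 10 genes was 394 ± 83.6 CPM in dorsal controls (SD, n = 4) and 329 ± 330 CPM in dorsal mutants (SD, n = 5). It was 77.4 ± 29.3 CPM in ventral controls and 101.5 ± 44.3 CPM in ventral mutants, and 74.6 ± 47.5 CPM in axon controls and 356 ± 214 CPM in axon mutants. In such captured pieces, fewer endothelial cells and less RNA per cell cannot be told apart.

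**Figure D1:**
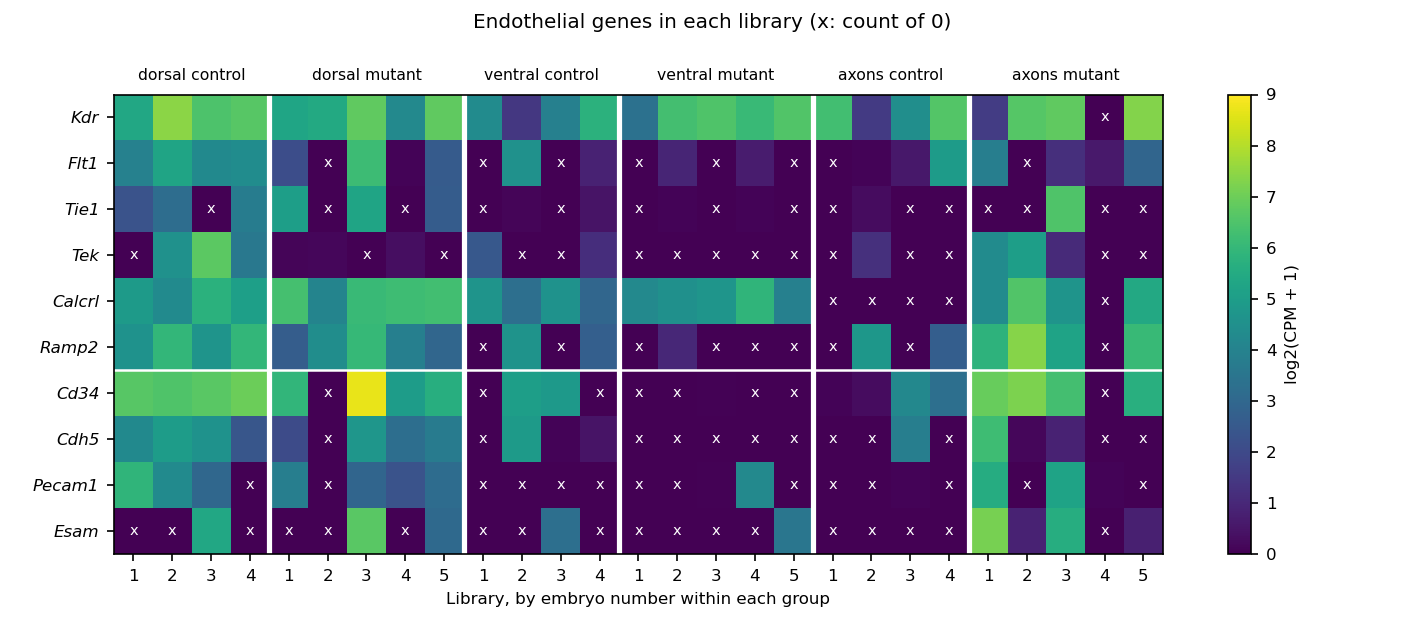
Level of each endothelial gene in each of the 27 libraries as log2(CPM + 1), shown by colour, with columns by embryo number within the 6 groups and a cross where the count was 0. The upper 6 rows are receptor genes and the lower 4 are surface and junction genes. Kdr is coloured in 26 of 27 columns, Calcrl is crossed out in all 4 axon controls, and axon mutant 4 has at most 0.525 CPM of any member.

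Kdr, which encodes the main signalling receptor for VEGF, was the most widely counted member, with reads in 26 of 27 libraries. In dorsal controls 1 to 4 it had 41.2, 173, 88.2 and 101 CPM, and in dorsal mutants 1 to 5 it had 38.1, 43.1, 111, 17.7 and 111 CPM. The ventral controls had 19.1, 1.75, 14.1 and 54.4 CPM, and the ventral mutants had 9.23, 77.5, 91.1, 67.3 and 94.2 CPM. Control and mutant values of Kdr thus overlapped in both regions, although 4 of 5 ventral mutants lay above every ventral control. In axon controls Kdr had 76.0, 1.91, 21.1 and 96.3 CPM, and in axon mutants it had 2.06, 98.5, 110 and 0 CPM in mutants 1 to 4 and 160 CPM in mutant 5. The group means ran, in falling order, from dorsal controls (101 CPM) through axon mutants (74.0), ventral mutants (67.9), dorsal mutants (64.1) and axon controls (48.8) to ventral controls (22.3), and the ranges of all neighbours in that order overlapped.

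Flt1, which encodes a VEGF receptor that also acts as a decoy, was counted in 19 libraries and was far less even. It had 14.3, 36.8, 18.2 and 19.6 CPM in dorsal controls and 3.39, 0, 71.4, 0.0690 and 5.05 CPM in dorsal mutants 1 to 5, so that 4 of the 5 mutants lay below every control and 1 lay above. In the ventral pieces only control 2 (22.6 CPM) exceeded 1 CPM. In the axon pieces it had 29.8 CPM in control 4 and at most 0.477 CPM in the other controls, and 13.3 CPM in mutant 1, 6.61 CPM in mutant 5 and at most 1.29 CPM in the others.

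Tek, the angiopoietin receptor, was read from few pieces. In dorsal controls 1 to 4 it had 0, 22.4, 106 and 11.1 CPM, whereas the dorsal mutants had 1, 2, 0, 4 and 0 counts, or at most 0.276 CPM. The dorsal groups overlapped through control 1 alone. Tek was at 0 in all 5 ventral mutants and had 4.55 CPM in ventral control 1 and 1.24 CPM in ventral control 4. In the axon pieces it had 1.36 CPM in control 2 and 0 in the other controls, and 19.3, 31.7 and 1.09 CPM in mutants 1 to 3 and 0 in mutants 4 and 5. The mean fell from dorsal controls (34.8 CPM) to axon mutants (10.4), ventral controls (1.45), axon controls (0.341), dorsal mutants (0.0974) and ventral mutants (0), with overlapping ranges between all neighbours.

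Tie1, which encodes a receptor that pairs with the product of Tek, did not follow it (Pearson r = 0.028 of log2(CPM + 1) over 27 libraries). Tie1 had 3.91, 8.38, 0 and 12.9 CPM in dorsal controls and 31.7, 0, 36.8, 0 and 5.18 CPM in dorsal mutants. Outside the dorsal pieces it exceeded 1 CPM in 1 of 18 libraries, axon mutant 3, at 91.9 CPM. Dorsal mutants 1 and 3, with the higher Tie1 values, had 1 and 0 counts of Tek.

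Calcrl encodes the receptor that binds adrenomedullin together with a partner such as the product of Ramp2. It was counted in all 18 dorsal and ventral pieces. The dorsal controls had 28.7, 18.6, 52.2 and 32.6 CPM, and the dorsal mutants had 80.5, 15.5, 68.1, 73.3 and 76.4 CPM, with 4 of 5 mutants above every control. The ventral controls had 24.5, 8.85, 23.2 and 6.83 CPM and the ventral mutants 17.9, 22.0, 25.0, 57.9 and 14.1 CPM. In the axon pieces all 4 controls were at 0, which allows up to 0.137 to 0.179 CPM in each, and the mutants had 19.1, 92.3, 24.3, 0 and 42.1 CPM. The mean was highest in dorsal mutants (62.8 CPM), followed by axon mutants (35.5), dorsal controls (33.0), ventral mutants (27.4), ventral controls (15.9) and axon controls (0). Of these neighbours, ventral controls and axon controls did not overlap.

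Ramp2 was detected in all 9 dorsal pieces, 3 of 9 ventral pieces and 6 of 9 axon pieces. It had 23.1, 60.6, 24.4 and 60.8 CPM in dorsal controls and 5.23, 20.4, 64.5, 13.7 and 6.78 CPM in dorsal mutants. The ventral controls had 0, 23.7, 0 and 5.65 CPM, and the ventral mutants were at 0 apart from 0.984 CPM in mutant 2. The axon controls had 0, 26.2, 0 and 5.41 CPM, and the axon mutants had 55.9, 166, 36.4, 0 and 66.0 CPM. The annotated exons of Ramp2 share 33.4% of their bases with Vps25 on the same strand, and Vps25 had 0 to 7.14 CPM in the 27 libraries, below Ramp2 in each library where Ramp2 exceeded 1 CPM. How reads on the shared bases were assigned is not given in the sources used here.

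Cd34 encodes a surface sialomucin of endothelium and of blood progenitors. It was the most even member in dorsal controls, at 101, 91.4, 102 and 124 CPM, and had its widest spread in dorsal mutants, at 59.0, 0, 416, 30.5 and 49.1 CPM. The ventral pieces held it in controls 2 and 3 alone (32.1 and 27.5 CPM), with at most 1 count in each of the 7 other ventral libraries. The axon controls had 0.0556, 0.218, 17.2 and 8.66 CPM, and the axon mutants had 119, 149, 78.0, 0 and 50.05 CPM, so that 4 of 5 axon mutants lay above every axon control. Of the annotated exonic bases of Cd34, 2.03% are shared with Gm16897 on the other strand.

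Cdh5 encodes VE-cadherin, the adhesion molecule of endothelial junctions. It was detected in 8 of 9 dorsal pieces, at 18.5, 30.3, 22.8 and 4.31 CPM in controls and 3.12, 0, 25.7, 8.55 and 12.4 CPM in mutants. In each other group at most 1 library exceeded 1 CPM (28.9 CPM in ventral control 2, 13.5 CPM in axon control 3 and 73.7 CPM in axon mutant 1), and all 5 ventral mutants were at 0. Pecam1, which encodes a junctional and platelet adhesion molecule, had 57.8, 19.0, 7.02 and 0 CPM in dorsal controls and 13.5, 0, 6.65, 3.93 and 7.98 CPM in dorsal mutants. It was at 0 in all 4 ventral controls, had at most 1 count in any axon control, and reached 18.1 CPM in ventral mutant 4, 46.8 CPM in axon mutant 1 and 36.1 CPM in axon mutant 3. Esam, which encodes an adhesion molecule of endothelium and platelets, was the least often counted, in 9 libraries. Its higher values were 40.9 CPM in dorsal control 3, 104 CPM in dorsal mutant 3, 140 CPM in axon mutant 1 and 47.5 CPM in axon mutant 3.

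**Figure D2:**
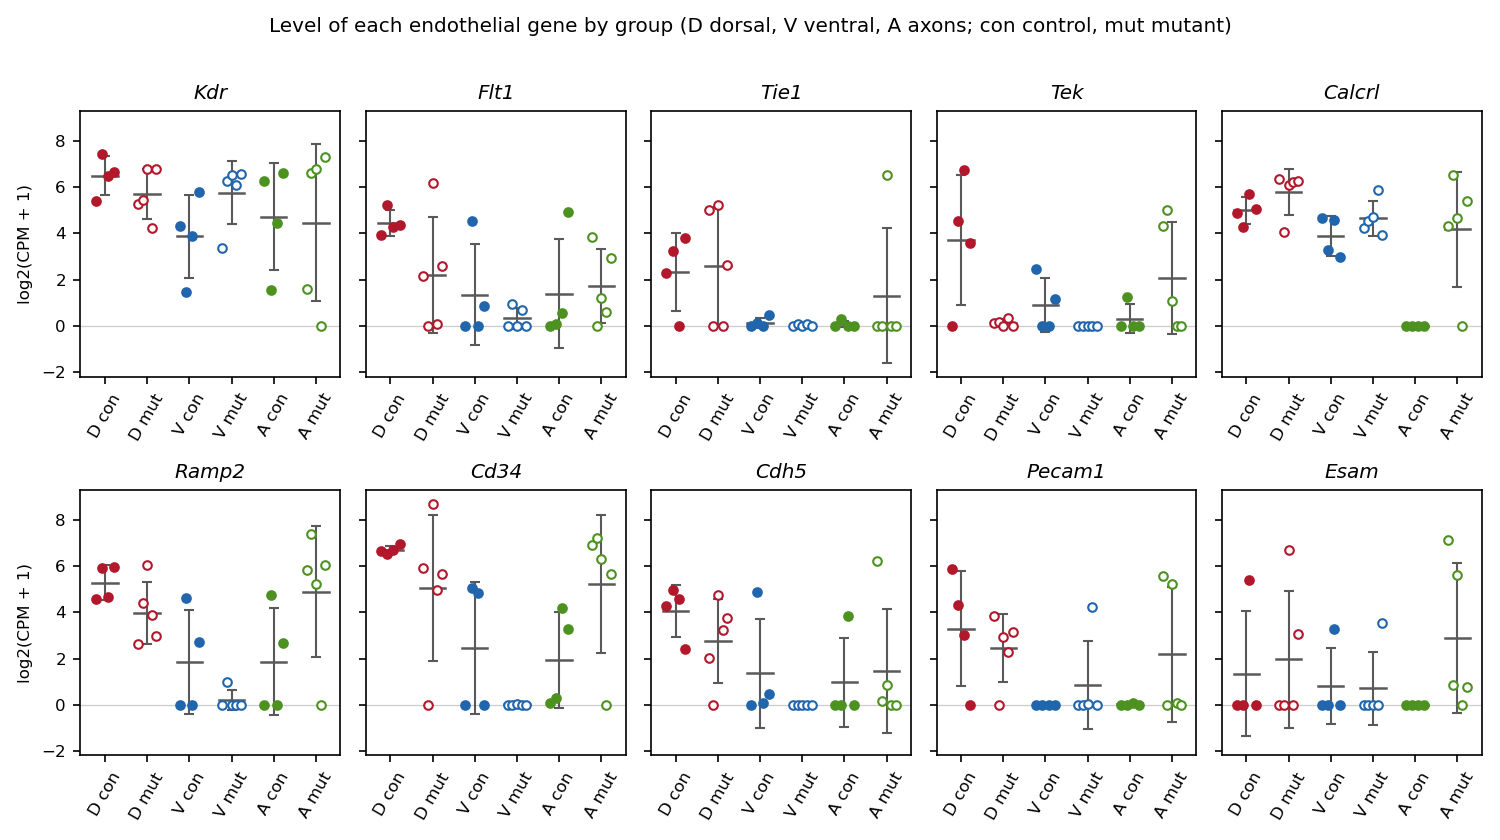
Level of each endothelial gene as log2(CPM + 1) by group, with 1 point per library (filled for the 4 controls, open for the 5 mutants), a line at the group mean and bars of 1 SD. Points at 0 and points near 5 or above stand side by side in many groups, whereas Calcrl lies above 2 in all dorsal and ventral libraries and at 0 in all 4 axon controls.

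Per kilobase of annotated exon, Cd34 (14.4 CPM per kb), Ramp2 (12.8) and Kdr (11.2) had the highest means in dorsal controls and Tie1 (1.28) the lowest. This scale compares genes only roughly, because the length joins the exons of all annotated transcript forms. For Ramp2 it also holds the 33.4% of bases shared with Vps25. In dorsal mutants Cd34 (15.2 CPM per kb) and Calcrl (12.9) led, where the Cd34 mean rested on mutant 3 (57.0, against 0 to 8.09 in the others). In ventral pieces Calcrl and Kdr led in controls (3.25 and 2.47 CPM per kb) and in mutants (5.61 and 7.52), and in axon mutants Ramp2 (19.6), Esam (13.2) and Cd34 (10.9) led, while Kdr led in axon controls (5.41). The Esam mean in axon mutants rested on mutants 1 and 3 (49.0 and 16.6), with at most 0.282 in the others. Differences between neighbours in these orders were not tested.

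In the comparison of mutants with controls in the dorsal OS, which asks whether loss of Smarcc1 changed expression there, 0 of the 10 members were called by the edgeR quasi-likelihood F-test with batch as a term (adjusted p under 0.05 and absolute log2 fold change over 0.58). Of all 16145 genes tested there, 0.0124% were called. Smarcc1 in dorsal mutants 1 and 2 (94.9 and 107 CPM) lay within the range of dorsal controls, so its loss was not seen in RNA of those pieces. At an unadjusted p under 0.05, which 5.35% of genes met, there were also 0 members, and DESeq2 called 1 member (Tek) and 3.63% of the 13776 genes it tested. The fitted log2 fold change of mutant over control was below 0 for 9 of 10 members, with a median of -0.78, against 51.4% of all genes and a median of -0.04. Calcrl was the member fitted above 0, at 1.06 ± 0.83 (SE, adjusted p = 1). Tek had the largest fitted difference, -6.80 ± 4.98 (SE, adjusted p = 1), which was -2.68 without mutant 5 and -8.31 without control 1. The two-sided exact permutation p of Tek was 0.0476, and it was 0.629 after adjustment over all genes and 0.1 when splits kept the batch composition. Within batch B, 3 controls had 11.1 to 106 CPM of Tek and 2 mutants at most 0.276 CPM, and within batch A the control and the 3 mutants all had at most 0.119 CPM. The other 8 log2 differences were -1.61 ± 2.11 for Pecam1, -0.87 ± 1.95 for Cdh5, -0.33 ± 0.78 for Kdr, -2.09 ± 2.97 for Flt1, -0.69 ± 1.55 for Cd34, -0.27 ± 3.41 for Tie1, -0.46 ± 5.02 for Esam and -1.36 ± 1.51 for Ramp2 (all SE). The mean CPM of Cd34, Tie1 and Esam was higher in the mutants, against the sign of their fits, and these 3 fits also lay above 0 without the batch term.

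Among genes of other cell types, the mesenchyme and stalk sums of dorsal mutants lay below those of every dorsal control. The mural, erythroid and macrophage sums overlapped between the genotypes. The 11 mesenchyme genes summed to 1160 to 10389 CPM in dorsal controls, with 9 to 11 of them detected, and to 55.6 to 373 CPM in dorsal mutants, with 4 to 8 detected, and all 11 were fitted below 0 (smallest edgeR adjusted p = 0.103). The 10 mural cell genes summed to 159 to 267 CPM and 42.7 to 275 CPM, respectively, and the 10 erythroid genes to 774 to 24385 CPM and 176 to 7288 CPM. The 8 genes of the stalk neuroepithelium summed to 2025 to 3198 CPM in dorsal controls and 790 to 1439 CPM in dorsal mutants, without overlap, and 7 of the 8 were fitted below 0 (smallest edgeR adjusted p = 0.380). The 11 macrophage and microglia genes summed to 7.20 to 192 CPM and 6.65 to 187 CPM. Their part in the endothelial values was not tested.

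In the ventral OS, 0 of 10 members and 0% of 16139 genes were called between genotypes by edgeR. At an unadjusted p under 0.05, which 3.19% of genes met, 2 members were found, and DESeq2 called 1 member (Pecam1) and 2.08% of the 13946 genes it tested. Pecam1 was at 0 in all controls and at least 19.5-fold higher in the mutant mean (edgeR adjusted p = 0.999), a value that rests on ventral mutant 4 (the fitted log2 difference was 8.69, and 0.79 without it), and Tek was at least 8.96-fold lower in mutants, all at 0 (adjusted p = 0.999). Kdr differed by 1.73 ± 1.04 on the log2 scale (SE, exact permutation p = 0.119) and Calcrl by 0.75 ± 1.17 (SE, exact permutation p = 0.222), both higher in mutants. Cdh5 and Cd34 had at most 1 count in each ventral mutant and were at least 45.4-fold and 92.3-fold higher in the control means, which rest on control 2 for Cdh5 and on controls 2 and 3 for Cd34 (adjusted p = 0.999 for both). Flt1, Ramp2 and Tie1 had higher means in controls (5.85 against 0.310 CPM, 7.34 against 0.197 CPM, and 0.112 against 0.0262 CPM) and Esam had nearly equal means (2.21 and 2.13 CPM), all with an adjusted p of 0.999. Over the members, 4 of 10 fits lay above 0 (46.8% of all genes), and the median was -2.06 as fitted, against -0.08 for all genes. With members at the floor set to their bound it was -3.16 over 9 members, leaving out Tie1, whose bound was under 1-fold, and -2.04 over 10 with Tie1 at its fitted value. The mural sum was 6.64 to 99.4 CPM in ventral controls and 20.2 to 82.5 CPM in ventral mutants, the erythroid sum 275 to 5278 CPM and 2.27 to 1227 CPM, and the mesenchyme sum 55.4 to 1305 CPM and 58.8 to 181 CPM, with 10 of 11 mesenchyme genes and 9 of 10 erythroid genes fitted below 0. The macrophage and microglia sum was 0.204 to 125 CPM in controls and 0 to 245 CPM in mutants, with 8 of 10 genes tested fitted above 0. Their part in these values was not tested.

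In the axon region, 0 of 10 members and 0% of 14977 genes were called by edgeR, 2 members had an unadjusted p under 0.05 (3.55% of genes), and DESeq2 called 1 member and 9.91% of the 11881 genes it tested. The 2 members, Calcrl and Esam, were at 0 in all 4 controls, and the member called by DESeq2 was Calcrl. Calcrl was at least 220-fold higher in the mutant mean (edgeR adjusted p = 0.880), with counts in 4 of 5 mutants, and its exact permutation p was 0.0476, which became 1 after adjustment over all genes and 0.1 within batches. It was called when all 27 libraries shared 1 fit (adjusted p = 0.0201), and its adjusted p was 1 without axon mutant 4. That library was the mutant at 0, and without it the fitted log2 difference rose from 12.02 to 12.72. The lowest fit with 1 library left out was 6.73, without axon mutant 5. Esam was at least 234-fold higher (adjusted p = 0.880), although 2 of its 4 non-zero mutants had less than 1 CPM. Pecam1 was at least 103-fold higher in mutants, from mutants 1 and 3 (adjusted p = 0.991). The high values of Esam and Pecam1 came from batch A, which held 1 control. Within batch B the means of 3 controls and 2 mutants were 0 and 0.355 CPM for Esam. For Pecam1 they were 0.0199 and 0.0292 CPM. Cd34 differed by 2.93 ± 2.69 and Ramp2 by 3.15 ± 3.15 on the log2 scale (SE, exact permutation p = 0.135 for each), with ranges of 1.499 to 6.44 and 1.54 to 7.19 when single libraries were left out, and Kdr by 0.60 ± 1.71 (SE). The mean CPM was higher in mutants for 9 of 10 members, all but Flt1 (7.58 in controls, 4.35 in mutants), whereas 7 of 10 fits lay above 0 (42.3% of all genes). The fits of Cdh5 (-7.49 ± 7.65), Tie1 (-1.47 ± 3.59) and Tek (-4.11 ± 5.28, all SE) ran against their means and turned above 0 without the batch term. The median over members was 1.33 as fitted and 1.77 with members at the floor set to their bound, against -0.29 for all genes.

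Axon mutant 4 stood apart from the 4 other axon mutants. Its 10 members summed to 0.584 CPM, against 325 to 538 CPM in the others, at a total of 17.1 M counts. In that library 0 of 10 mural genes and 0 of 11 macrophage and microglia genes were detected, while 8 of 34 other endothelial genes (1256 CPM), 7 of 10 erythroid genes (9509 CPM), 5 of 11 mesenchyme genes (629 CPM) and 7 of 8 genes of RGC axons (5777 CPM) were. The list of other endothelial genes holds Bsg and Slc2a1, each detected in 27 of 27 libraries. Its sum was 918 to 1286 CPM in ventral mutants as well, so the sum is no measure of endothelial RNA alone. Over the axon groups, the erythroid sum ran from 2650 to 9034 CPM in controls and from 609 to 33122 CPM in mutants, the mural sum from 9.01 to 105 CPM and from 0.409 to 80.5 CPM, and the mesenchyme sum from 400 to 2526 CPM and from 629 to 2265 CPM. Of the 10 mural genes, 5 were detected in at least 1 axon control and 3 in at least 1 axon mutant. Kcnj8, Tagln and Higd1b were at 0 in both groups. The macrophage and microglia sum ran from 0 to 339 CPM in axon controls and from 0 to 172 CPM in axon mutants, and all 10 of its genes tested were fitted below 0 in mutants (median -8.57, smallest edgeR adjusted p = 0.880). Their part in the endothelial values was not tested.

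The regions of the same embryos, read from shared numbers in the labels, were then compared within controls, each embryo forming a block. Dorsal OS and axons differed in 1 of 10 members called, against 0.704% of 16330 genes, and in 2 members at an unadjusted p under 0.05 (6.09% of genes). DESeq2 called 6 members and 11.6% of genes. The called member was Calcrl, whose level in the dorsal OS of controls exceeded that of their axons at least 204-fold (edgeR adjusted p = 0.0228), with 18.6 to 52.2 CPM in 4 dorsal controls and 0 in 4 axon controls. The call did not hold without any 1 of the 4 control embryos (adjusted p from 0.089 to 0.133), without mutant embryo 5 (0.0551), or with controls fitted alone (0.250). Ramp2 was the other member (adjusted p = 0.564). Cd34 also did not overlap between these groups (91.4 to 124 CPM against 0.0556 to 17.2 CPM, adjusted p = 0.817), so that 2 of 10 members lay wholly higher in dorsal controls, against 2.84% of all genes. The mural sum was 159 to 267 CPM in dorsal controls and 9.01 to 105 CPM in axon controls, the mesenchyme sum 1160 to 10389 CPM and 400 to 2526 CPM, with all 11 genes fitted higher in the dorsal OS, and the erythroid sum 774 to 24385 CPM and 2650 to 9034 CPM. Of the 8 stalk genes, 2 were called lower in the dorsal OS. Their part was not tested.

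Between ventral OS and axons of controls, 0 of 10 members were called (0.251% of all genes) and 1 had an unadjusted p under 0.05 (4.51%), Calcrl. DESeq2 called 1 member and 10.5% of genes. Calcrl was at least 98.0-fold higher in the ventral OS (edgeR adjusted p = 0.0706), and its groups did not overlap, as for 2.61% of genes in that direction. Between dorsal and ventral controls, 0 of 10 members and 0% of genes were called by edgeR, 2 members had an unadjusted p under 0.05 (2.99% of genes), and DESeq2 called 3 members (Ramp2, Pecam1 and Flt1) and 5.27% of genes. Cd34 did not overlap between these groups (91.4 to 124 CPM in dorsal controls, 0 to 32.1 CPM in ventral controls, adjusted p = 1), as 1.3% of genes did in that direction. The 2 members under the unadjusted threshold were Pecam1, higher in the dorsal OS by at least 113-fold, and Ramp2, with means of 42.2 and 7.34 CPM (adjusted p = 1 for both).

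Within mutants, 0 of 10 members were called by edgeR between dorsal and ventral OS (0.0306% of genes), between dorsal OS and axons (0.698%) or between ventral OS and axons (0.545%). At an unadjusted p under 0.05 there were 3, 0 and 4 members (3.71%, 12.2% and 11.2% of genes), and DESeq2 called 4, 1 and 4 members (6.77%, 24.0% and 22.1% of genes), respectively. Cd34 was at least 686-fold higher in dorsal than in ventral mutants (adjusted p = 0.316) and at least 491-fold higher in axon than in ventral mutants (adjusted p = 0.0591), with 1 count in 5 ventral mutants together. Its dorsal mean rested largely on mutant 3 (416 CPM, against 0 to 59.0 CPM in the others). Dorsal mutant 2 and axon mutant 4 were at 0, so the groups overlapped. Ramp2 lay wholly higher in dorsal than in ventral mutants (22.1 against 0.197 CPM, adjusted p = 0.712), as 0.6% of genes did, and was higher in the axon mean (64.8 CPM, adjusted p = 0.0979). Cdh5, at 0 in all ventral mutants, was at least 61.6-fold higher in dorsal mutants (adjusted p = 1) and at least 92.4-fold higher in axon mutants (adjusted p = 0.415), the latter from axon mutant 1. Tek, also at 0 in ventral mutants, was at least 64.5-fold higher in axon mutants (adjusted p = 0.343). That value came mostly from axon mutants 1 and 2 of batch A (19.3 and 31.7 CPM), with axon mutants 4 and 5 at 0. Between dorsal and axon mutants the member with the smallest p was Tek, with means of 0.0974 and 10.4 CPM (adjusted p = 0.625).

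Other cell types differed between the regions of mutants as well. The erythroid sum was 176 to 7288 CPM in dorsal, 2.27 to 1227 CPM in ventral and 609 to 33122 CPM in axon mutants. Between ventral and dorsal mutants 8 of 10 erythroid genes were higher in the dorsal OS at an unadjusted p under 0.05 with none called, and between ventral and axon mutants 7 were lower in the ventral OS, of which 2 were called. The mesenchyme sum was 55.6 to 373 CPM, 58.8 to 181 CPM and 629 to 2265 CPM in the same order, with all 11 genes fitted lower in the ventral OS than in the axons, 8 at an unadjusted p under 0.05 and 1 called. Of the 8 stalk genes, which summed to 790 to 1439 CPM, 1867 to 3534 CPM and 2585 to 3565 CPM, 2 were called lower in the dorsal than in the ventral OS, 2 lower in the dorsal OS than in the axons and 1 lower in the ventral OS than in the axons. Their part in the endothelial values was not tested.

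Over the 9 embryos of both genotypes, each member had a higher mean log2(CPM + 1) in dorsal than in ventral pieces. The paired difference was 3.64 for Ramp2, higher in the dorsal piece of 9 of 9 embryos (exact sign-flip permutation p = 0.00391, the smallest that 9 embryos can give). It was 4.69 for Cd34 and 2.73 for Cdh5, each higher in 8 embryos and equal in 1 (exact p = 0.00781 for each), and 1.13 for Calcrl, higher in 8 of 9 (exact p = 0.0156). Pecam1, Flt1 and Tie1 had exact permutation p-values of 0.03125, 0.0234 and 0.03125, and Kdr, Tek and Esam had 0.148, 0.156 and 0.5. After adjustment over 16330 genes the p-values of the 10 members ran from 0.387 to 0.903, so none passed. An unadjusted p under 0.05 with the dorsal piece higher was met by 7 of 10 members and by 3.35% of all genes. The dorsal and axon pieces of the 9 embryos differed at that threshold in 1 of 10 members, Calcrl, higher in the dorsal piece of 8 of 9 embryos (exact permutation p = 0.0234, adjusted p = 0.268), against 11.1% of all genes in that direction. The ventral and axon pieces differed in 0 of 10 (smallest exact permutation p = 0.0625, for Ramp2, adjusted p = 0.341).

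The sums of mural, mesenchyme and erythroid genes overlapped between dorsal and ventral pieces, although they reached higher in the dorsal ones. The mural sum was 42.7 to 275 CPM in the 9 dorsal pieces and 6.64 to 99.4 CPM in the 9 ventral pieces. Of the 10 mural genes, 5 were detected in at least 1 ventral control and 4 in at least 1 ventral mutant. The corresponding numbers were 9 and 8 in the dorsal groups. Kcnj8, Des and Higd1b, which mark pericytes and smooth muscle, were at 0 in ventral pieces of both genotypes. The mesenchyme sum was 1160 to 10389 CPM in dorsal and 55.4 to 1305 CPM in ventral controls, with all 11 genes fitted higher in the dorsal OS, 6 of them at an unadjusted p under 0.05. The erythroid sum was 774 to 24385 CPM in dorsal and 275 to 5278 CPM in ventral controls, with 9 of 10 genes fitted higher in the dorsal OS. Their part in the endothelial values was not tested.

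Whether the genotype effect differed between regions was tested as an interaction. By edgeR, 0 of 10 members passed after adjustment, for dorsal against ventral OS (0.00612% of genes called), dorsal OS against axons (0.0122%) or ventral OS against axons (0%), and DESeq2 called 1, 3 and 5 members (4.21%, 11.8% and 11.8% of genes). At an unadjusted p under 0.05 there were 0, 3 and 4 members (2.29%, 4.95% and 3.89% of genes). For dorsal OS against axons these were Calcrl (adjusted p = 0.398), Tek (0.961) and Ramp2 (0.957), and for ventral OS against axons Calcrl, Cd34, Ramp2 and Tek (adjusted p = 1 for each). In all of them the fitted mutant-to-control difference was higher in the axons. For dorsal against ventral OS the member with the smallest p was Cd34 (adjusted p = 1).

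In the ventral pieces Kdr and Calcrl were detected in 9 of 9 libraries, and the 8 other members made 17 detections in 72 gene-by-library pairs. In the ventral mutants both were detected in 5 of 5 libraries, whereas the 8 other members made 5 detections in 40 gene-by-library pairs (12.5%). The corresponding shares for these 8 genes were 81.25% in dorsal controls, 65.0% in dorsal mutants, 37.5% in ventral controls, 31.25% in axon controls and 60% in axon mutants. Kdr and Calcrl made 4 of 8 possible detections in axon controls, all of them Kdr, and 8 of 10 in axon mutants. Kdr and Calcrl together made 87.0% to 100% of the summed member level in ventral mutants and 24.2% to 41.6% in dorsal controls. The other groups spread widely and overlapped these 2 groups in part. Their shares were 8.99% to 90.6% in ventral controls and 19.8% to 74.0% in dorsal mutants. In axon controls the share was 6.36% to 99.9%, and in axon mutants it was 0% to 62.1%. Ventral control 2, at the low end of its group, had 10.6 CPM of the pair and 107 CPM of the other 8 genes. Kdr and Calcrl were set apart with these values known, so their contrast with the 8 other genes follows in part from that choice. The shares of gene-by-library pairs describe these libraries and were not tested. Across the 27 libraries, which share embryos and differ in depth, the log2(CPM + 1) of Kdr had a median Pearson r of 0.18 with the other members (from -0.08 with Cdh5 to 0.42 with Calcrl). That of Cd34 was 0.54, with its highest r of 0.73 with Ramp2, and Cdh5 had r = 0.71 with Cd34. These correlations describe the libraries, since most of the spread was between 0 and a high level.

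**Figure D3:**
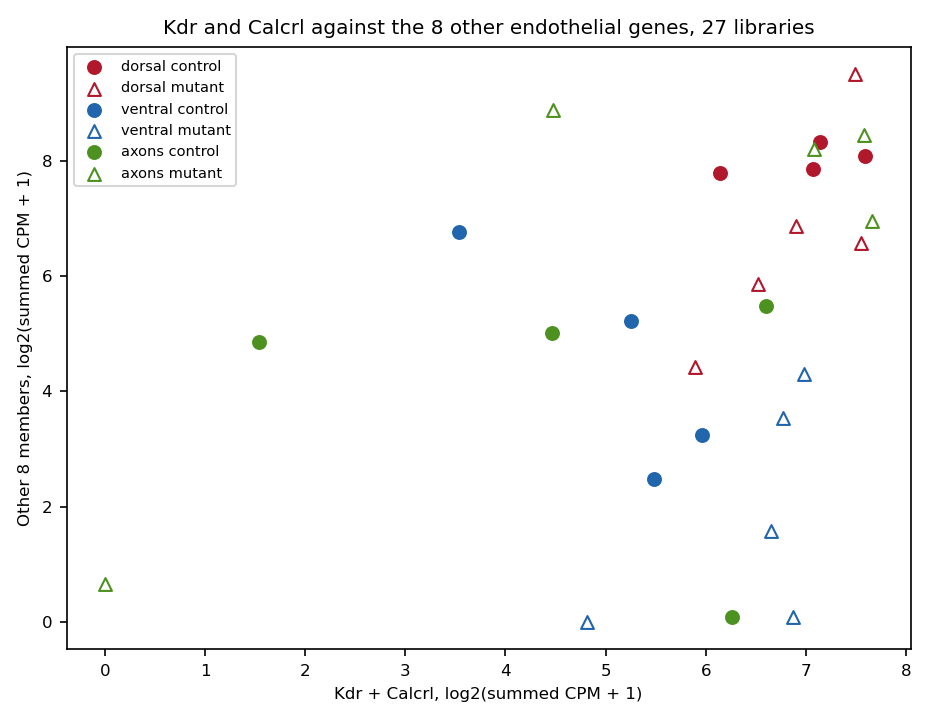
Summed CPM of Kdr and Calcrl (horizontal axis) against the summed CPM of the 8 other endothelial genes (vertical axis), both as log2(CPM + 1), with 1 point per library (filled circles for controls, open triangles for mutants). The 4 dorsal controls lie high on both axes, the 5 ventral mutants lie lower right with the pair present and the other genes low, and axon mutant 4 lies near 0 on both.

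The ligands and partners of the member receptors were counted from a list of 19 genes, of which 14, 14 and 13 were tested in dorsal OS, ventral OS and axons. None was called between genotypes by edgeR in these regions. At an unadjusted p under 0.05 there were 0, 1 and 1, a threshold that 5.35%, 3.19% and 3.55% of all genes met. Nrp1, the VEGF co-receptor, was lower in ventral mutants (46.9 ± 34.1 CPM in controls, 9.61 ± 13.4 CPM in mutants, SD, edgeR adjusted p = 0.999). Ptprb, the phosphatase that acts on the product of Tek, was at 0 in all axon controls and had 7.82 ± 7.85 CPM in axon mutants (SD, edgeR adjusted p = 0.880). Vegfa, the main ligand of Kdr, was detected in 26 of 27 libraries, with means of 24.2 and 23.8 CPM in dorsal controls and mutants, 13.8 and 30.1 CPM in ventral pieces and 26.5 and 22.8 CPM in axon pieces. Its relative Pgf, a ligand of Flt1, had means of 97.7 and 27.2 CPM in the dorsal pieces, from 3 of 4 controls and 2 of 5 mutants. The dorsal values of Pgf overlapped, at 0 to 353 CPM in controls and 0 to 79.2 CPM in mutants. Angpt1, which activates Tek, had means of 60.6 and 10.8 CPM in dorsal controls and mutants. The dorsal values of Angpt1 also overlapped, at 12.7 to 168 CPM in controls and 1.65 to 22.8 CPM in mutants. Angpt2, the antagonist of Angpt1 in many settings, had means of 39.7 and 37.3 CPM in the ventral pieces. In the dorsal pieces Angpt2 had means of 9.18 and 4.14 CPM. Adm, which encodes adrenomedullin, the ligand of the Calcrl and Ramp2 pair, was at 0 in all 27 libraries.

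Of 34 other endothelial genes, 29, 24 and 27 were tested in dorsal OS, ventral OS and axons, and none was called between genotypes by edgeR. At an unadjusted p under 0.05 there were 2, 2 and 0, a threshold that 5.35%, 3.19% and 3.55% of all genes met. Slc2a1, a glucose transporter of the blood-brain barrier and of other tissues, had 229 ± 123 CPM in dorsal controls and 741 ± 347 CPM in dorsal mutants (SD, edgeR adjusted p = 0.918), and the transcription factor gene Sox17 was at 0 in dorsal controls and had 3.25 ± 3.33 CPM in mutants (adjusted p = 0.918). Emcn, which encodes the endothelial sialomucin endomucin, had 52.4 ± 68.7 CPM in ventral controls and 0 in all 5 ventral mutants (edgeR adjusted p = 0.999). Bsg had 931 ± 161 CPM against 674 ± 109 CPM there (SD, adjusted p = 0.999). In the axons, Vwf and Eng had the smallest p (adjusted p = 0.880 for both), with Eng, a TGF-beta co-receptor of endothelium, at 0.313 ± 0.586 CPM in controls and 42.3 ± 29.3 CPM in mutants (SD), detected in 1 of 4 and 4 of 5 libraries. The median log2 difference of this list was -1.81 in dorsal OS, -0.71 in ventral OS and 1.57 in axons, against medians of -0.04, -0.08 and -0.29 over all genes tested.

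Among 13146 genes searched, the gene most like the summed member level over 27 libraries was Cald1 (Pearson r = 0.80 of log2(CPM + 1)), followed by Nisch (0.78), Timp2 (0.77), Stk39 (0.73), Tsnax, Myl9, Crk, Tmed9, Tmem9 and Ubxn4 (0.70 to 0.68). For single members the nearest genes were Fli1 for Pecam1 (r = 0.71), Rpia for Cdh5 (0.79), Amer1 for Kdr (0.72), Sox18 for Flt1 (0.75), Emcn for Cd34 (0.88), D17Wsu92e for Calcrl (0.84), Pde8a for Tie1 (0.82), Cgnl1 for Tek (0.78), Zcwpw1 for Esam (0.70) and Pcdh17 for Ramp2 (0.70). Of these, Fli1, Sox18 and Emcn were on the list of other endothelial genes. The libraries share embryos and amplification, and the highest r among many genes is high by selection.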

How the data were processed

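Laser-captured pieces of the OS and RGC axons were sequenced as 27 libraries (Geo-seq, cDNA amplified by PCR, no molecular identifiers). The authors deposited raw gene counts. Single-end reads had gone through Seq2science, with STAR on mm10 and HTSeq. Software versions, annotation release, strand setting and the treatment of reads shared by overlapping genes are not given in the sources used here. Salmon TPM values were not used. Of 55487 Ensembl identifiers, 55227 were matched to symbols in a GRCm38 annotation (GENCODE M21), which also gave positions, exonic lengths and overlaps.

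The 16330 genes kept had over 10 counts in 3 or more libraries. Genotypes were compared within each region with edgeR 4.0.16 (R 4.3.3, TMM, quasi-likelihood F-test, batch as a term), and regions and interactions in 1 model of 27 libraries with the embryo as a block. Calls needed both an adjusted p (Benjamini-Hochberg) below 0.05 and a log2 fold change beyond 0.58 either way. Exact permutation tests used log2(CPM + 1), and their smallest p was 0.00794 over all splits and 0.025 within batches. Where every library of a group had at most 3 counts, its level was set to that floor and the fold is given as a bound. Pieces with the same genotype and number in the labels were taken as the 3 pieces of 1 embryo. The embryo block and the sign-flip tests depend on this reading of the labels. The deviations of paired libraries correlated at -0.019 to 0.115, over 0.1 in 2 of 27 pairs, which does not settle whether the pairing is right.

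The members in each genotype comparison were named in full, and in other comparisons those with an unadjusted p under 0.05 or, with none, the smallest p. Members, lists and tests were chosen with earlier results of these data known. Alternatives were RLE scaling, no count filter, DESeq2 1.42.0, no batch term, batch B alone, all libraries in 1 fit, no replicate block, 1 genotype alone, another pseudocount, TMM-scaled CPM, and leaving out each library or embryo. The fitting steps were tested on simulated data.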

Additional observations from a re-analysis of the deposited data

Results flagged for a closer look

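Of 52 combinations of member and group that could be tested, 15 had a library whose gap to the nearest other exceeded the 95% critical value of Dixon's test, which chance alone gives in about 5% of groups of normally distributed values. In 8 of the 15 every other library of the group was at 0, where that rate does not apply. In 12 of the 15 the library stood above the others. In ventral pieces these were Pecam1 in mutant 4 (18.05 CPM), Cdh5 in control 2 (28.91 CPM), Esam in control 3 (8.857 CPM) and in mutant 5 (10.65 CPM), and Ramp2 in mutant 2 (0.984 CPM). In axon pieces they were Cdh5 in control 3 (13.48 CPM) and in mutant 1 (73.65 CPM), Flt1 in control 4 (29.77 CPM), Tie1 in control 2 (0.218 CPM) and in mutant 3 (91.94 CPM), and Tek in control 2 (1.364 CPM). In dorsal pieces Esam stood apart in control 3 (40.95 CPM).

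The libraries below the others were ventral mutant 1 for Kdr (9.229 CPM), axon mutant 4 for Cd34 (0 CPM) and dorsal mutant 2 for Calcrl (15.5 CPM).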

How the results depend on the processing

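Most members were read deeply in some pieces and not at all in others, whereas Kdr and Calcrl were counted in all 18 dorsal and ventral pieces. Leaving out single libraries turned the sign of several members between genotypes. In dorsal OS the log2 difference ran from -1.04 to 0.28 for Kdr, -2.83 to 1.07 for Tie1 and -1.89 to 10.43 for Esam, in ventral OS from -4.64 to 1.04 for Flt1, -0.0448 to 1.39 for Calcrl, -1.93 to 0.54 for Tie1 and -4.57 to 7.62 for Esam, and in axons from -9.51 to 3.09 for Cdh5, -5.24 to 1.33 for Kdr, -1.42 to 5.06 for Flt1, -3.58 to 4.37 for Tie1 and -6.12 to 2.92 for Tek. Other log2 differences kept their sign but moved widely, from -8.31 (without control 1) to -2.68 (without mutant 5) for Tek in dorsal OS, 0.79 (without mutant 4) to 10.31 (without control 1) for Pecam1 in ventral OS, and 1.499 (without control 1) to 6.44 (without mutant 4) for Cd34, 1.54 (without mutant 5) to 7.19 (without mutant 4) for Ramp2 and 0.35 (without control 1) to 6.19 (without mutant 5) for Pecam1 in axons. Without the batch term it was 0.12 for Cd34, 1.27 for Tie1 and 1.12 for Esam in dorsal OS, -0.13 for Esam in ventral OS, and 2.01 for Cdh5, -0.73 for Flt1, 8.33 for Tie1 and 4.95 for Tek in axons. With all 27 libraries in 1 fit it was 0.61 for Tie1 and 5.24 for Esam in dorsal OS, -0.0582 for Esam in ventral OS, and 2.10 for Cdh5, -0.62 for Flt1, 7.498 for Tie1 and 4.06 for Tek in axons. Flt1 in axons was -0.0238 with RLE scaling, -0.0211 with DESeq2 and -1.38 in batch B alone. With a pseudocount of 0.1 the mean difference of Tie1 between dorsal genotypes (exact p = 0.976) and of Esam between dorsal OS and axons (exact p = 1) changed sign. The causes were not tested.

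DESeq2 called more genes than edgeR in every comparison. Between genotypes it called 500, 290 and 1178 genes in dorsal OS, ventral OS and axons, with 1 member in each (Tek, Pecam1 and Calcrl). Between regions of controls it called 860 (dorsal against ventral, 3 members), 1896 (dorsal against axons, 6 members) and 1712 genes (ventral against axons, 1 member). Between regions of mutants it called 1106 (4 members), 3925 (1 member, Tie1) and 3612 genes (4 members), and for the interactions in the same order 688, 1931 and 1930 genes (1, 3 and 5 members). Without the count filter, edgeR called 101, 8 and 10 genes between genotypes, 71 between dorsal OS and axons of controls, and 1 member (Cd34) between ventral OS and axons of mutants. In dorsal OS it called 8 genes without the batch term and 0 in batch B alone, and in axons 5 genes and 1 member (Calcrl) with all libraries in 1 fit. RLE scaling gave 62 genes between dorsal OS and axons of controls. Controls fitted alone gave 36 genes and 0 members there and 13 genes between ventral OS and axons.

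With no replicate block for the embryo, 73 genes were called between dorsal OS and axons of controls, 27 genes and 1 member (Calcrl) between ventral OS and axons of controls, 3 genes between dorsal and ventral OS of mutants, and 1 member (Cd34) between ventral OS and axons of mutants. The interactions with axons gave 4 genes (dorsal) and 1 gene (ventral) without it. Leaving out each embryo or library gave 0 to 2 genes between dorsal genotypes. In controls it gave 0 to 1 gene for dorsal against ventral OS, 57 to 109 genes and 0 to 1 member for dorsal OS against axons, and 13 to 37 genes and 0 to 1 member for ventral OS against axons. In mutants it gave 2 to 8 genes, 65 to 136 genes, and 58 to 105 genes with 0 to 1 member, respectively, and 0 to 1 gene for the interaction of ventral OS and axons.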
